A study of Homo sapiens with 3 samples.

Results

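The genes described here are 10 regulators of p53 and of programmed cell death: the p53 inhibitors MDM2 and MDM4, the BCL2 family genes BCL2L1, BCL2L11 and BCL2L12, the survivin gene BIRC5, the caspase genes CASP2, CASP8 and CASP9, and the death receptor gene FAS. They were chosen by name, as genes with known splice forms, at a time when earlier results of these data were known. Their rows were taken from 2 deposited tables of exon-skipping events, which set the libraries coded RS2 and RS3 each against 1 comparator library. An event is 1 exon that is either kept in or skipped from the mRNA. The 10 genes had 32 of 40702 events in RS2, in 27 exons of 9 genes, and 31 of 42518 events in RS3, in 26 exons of 8 genes. Together the tables listed 31 exons of these genes, of which 22 were in both. BCL2L1, whose long form protects cells and whose short form promotes death, had no row in the tables used here and is not analysed, and MDM4 had rows in RS2 alone.

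The libraries came from BJ cells, an established line of human foreskin fibroblasts, on day 8 after viral expression of the factors MYC, KLF4, SOX2 and OCT4 (OSKM) had been induced. All 3 samples carried these factors, and they had received a non-targeting siRNA (genotype label WT), an siRNA against the TGF-beta signal transducer SMAD3 (SMAD3 Knock-down) or an siRNA against the splicing factor SFRS11 (SFRS11 Knock-down), with 1 library each. No label ties RS2, RS3 or the comparator to a siRNA, so the codes are used throughout and no value below is assigned to a knockdown. Each sample is a bulk culture, in which a change of splicing within cells and a change in the mix of cells cannot be told apart. The tables hold no expression level, so the cell type could not be checked from them. A gene is listed only if it has an exon-skipping event, which depends on its exons as well as on its expression. Listing is therefore given only as a description. Of 12 fibroblast marker genes, 11 had events in RS2 and in RS3. Of 10 pluripotency markers, 2 had events in RS2 and 4 in RS3, and of 10 epithelial markers 5 and 6. Among these markers, the fibroblast gene FN1, fibronectin, was the only one with a called event, with lower inclusion in RS2 and RS3. Over all genes, 0.238% had a called event in RS2 and 3.05% in RS3.

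The p53 protein halts the cell cycle or starts apoptosis after stress, and in fibroblasts it limits how many cells can be reprogrammed. MDM2 and MDM4 hold p53 down. Apoptosis runs along a mitochondrial route, which BCL2 family proteins gate and which activates caspase-9, and along a death receptor route from FAS to caspase-8. Many of these genes make splice forms of opposite or reduced activity, so the choice of a single exon can matter for the protein.

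A choice of exons described below is shown first, since their length and frame decide what is lost when they are skipped. Only those of BIRC5 and BCL2L12 had a called event, in BCL2L12 at the 140-base form, which lacks the capitals. Those of MDM4, CASP2, CASP8 and FAS had none. Positions are in hg19, as deposited, and all 6 exons lie on the plus strand. The sequences are those of GENCODE release 29, which is built on GRCh38, and not of an hg19 genome. Each exon was identified by its length and by its spacing to the other listed exons of the gene, and all 31 exons of the 9 genes had such a match. MDM2 had only 1 listed exon, so its match rests on length alone. Capitals at an exon's ends mark bases of a codon shared with the neighbouring exon. In BCL2L12 and MDM4 they mark instead the bases that a shorter listed form of the exon lacks.
BIRC5 exon of 118 bases, chr17:76212745-76212862: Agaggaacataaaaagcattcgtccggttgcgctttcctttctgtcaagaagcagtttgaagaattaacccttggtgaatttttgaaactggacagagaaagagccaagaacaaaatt
BCL2L12 exon of 143 bases, chr19:50170276-50170418: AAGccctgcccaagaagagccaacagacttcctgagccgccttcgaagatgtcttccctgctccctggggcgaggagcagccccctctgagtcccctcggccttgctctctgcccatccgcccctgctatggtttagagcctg
MDM4 exon of 68 bases, chr1:204506558-204506625: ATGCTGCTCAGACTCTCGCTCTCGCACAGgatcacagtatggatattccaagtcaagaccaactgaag
CASP2 exon of 61 bases, chr7:142997473-142997533: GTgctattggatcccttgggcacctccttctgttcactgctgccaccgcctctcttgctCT
CASP8 exon of 45 bases, chr2:202137621-202137665: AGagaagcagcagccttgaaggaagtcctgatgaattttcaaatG
FAS exon of 63 bases, chr10:90770510-90770572: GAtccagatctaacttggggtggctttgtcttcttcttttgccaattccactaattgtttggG

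Splicing of these genes was called different at 2 exons, both in RS3: the BIRC5 exon of 118 bases was included less and the BCL2L12 exon of 140 bases was included more than in the comparator. Inclusion level is the share of transcripts over a region that keep the exon, and a difference is the level in RS2 or RS3 minus the level in the comparator, from -1 to 1. An event counts as called when its FDR in the authors' deposited table is under 0.05 and its absolute difference is at least 0.1. These p-values and FDRs compare 2 libraries, not 2 conditions, and the read depth behind them is unknown.

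In RS3, 2 of 31 events (6.45%) were called, against 0.967% of all 42518 events, and 2 of 8 genes, against 3.05% of all genes. Called events with higher inclusion made up 0.230% of all RS3 events and those with lower inclusion 0.736%, and these genes had 1 of each. In RS2, 0 of 32 events and 0 of 9 genes were called, where 0.0712% of all events and 0.238% of all genes were. At an unadjusted p-value under 0.05 in the authors' deposited table, 1 RS2 event of these genes passed (4.52% of all events did) and 5 of 31 RS3 events (7.61% of all). The RS3 events include the 143-base and the 140-base form of the same BCL2L12 exon, which are not separate evidence. Differences of at least 0.1, called or not, were listed for 8 of 32 events (25.0%) in RS2 against 19.2% of all, and 9 of 31 (29.0%) in RS3 against 21.2%. From the authors' deposited table, the absolute difference had a median of 0.033 in RS2, against 0.018 over all events, and of 0.03 in RS3, against 0.02. With 1 row per exon, the one with the smallest p-value, the RS3 median was 0.055, against 0.022 over all exons. Signs were mixed: 15 RS2 events were higher (46.9%) and 17 lower (53.1%), and 13 RS3 events were higher (41.9%) and 18 lower (58.1%). Over all events, 49.8% were higher and 45.9% lower in RS2, and 45.2% were higher and 51.1% lower in RS3.

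**Figure D1:**
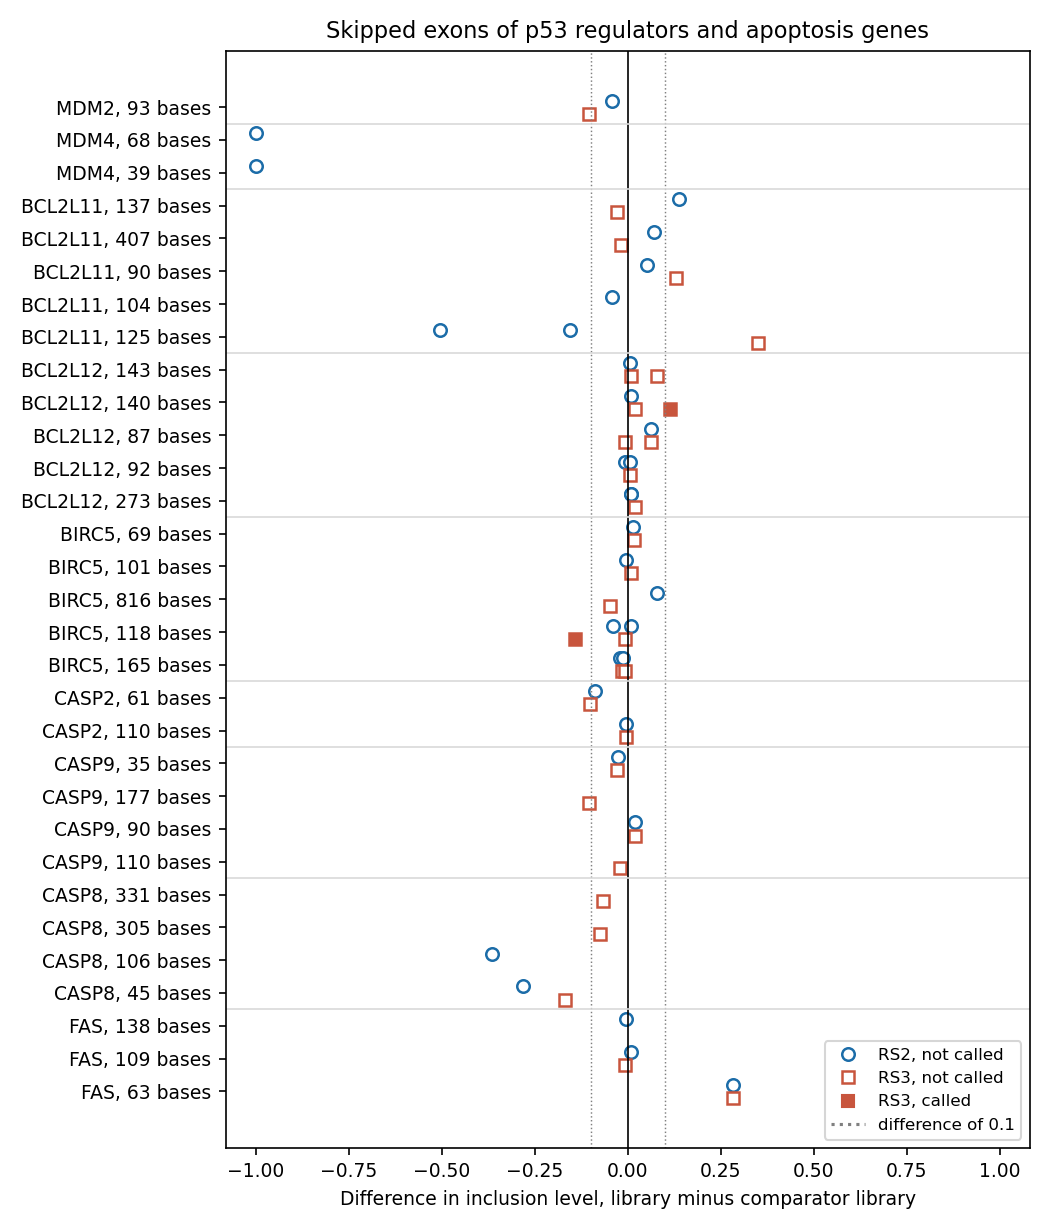
Difference in inclusion level at each listed exon of the 9 genes with rows (exons from 5′ to 3′ within a gene), for RS2 (circles) and RS3 (squares), with 1 point for each row of the authors' deposited table. The 2 filled squares, BIRC5 at -0.142 and BCL2L12 at 0.114, are the called events, and points farther from 0, such as MDM4 at -1, were not called.

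**Figure D2:**
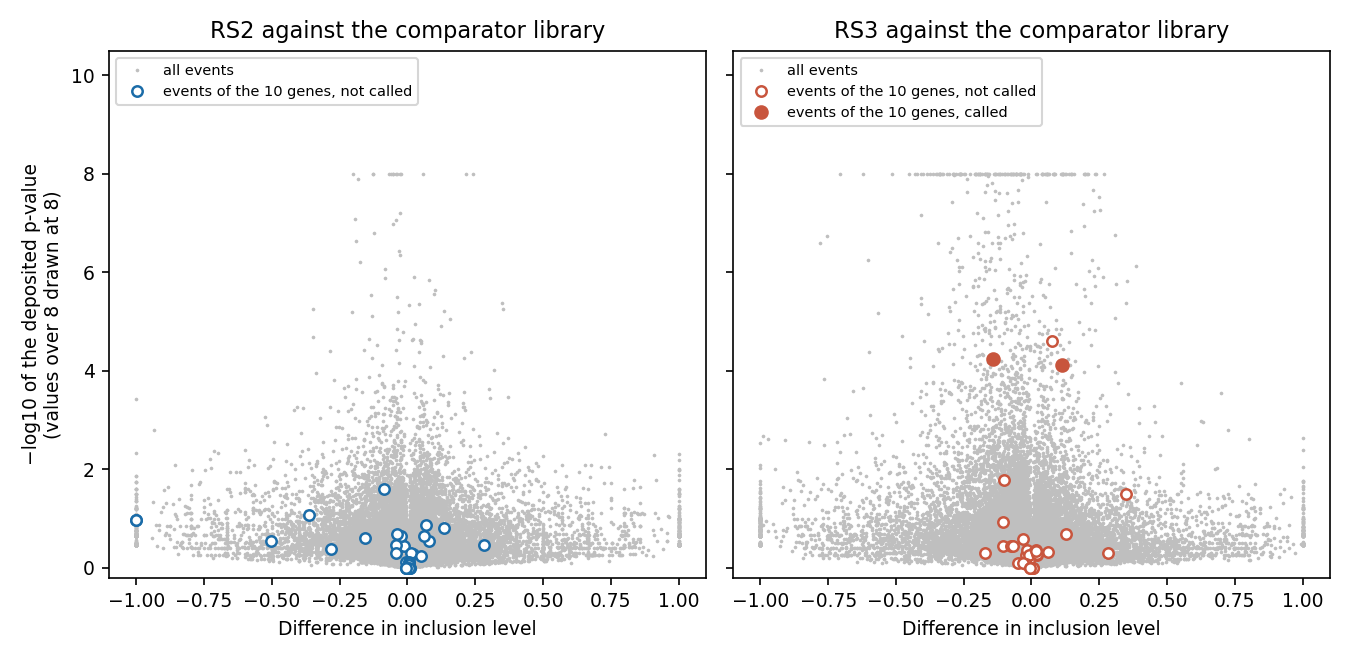
Deposited p-value on a −log10 scale against the difference in inclusion for all events (grey) and for those of the 10 genes (coloured), in RS2 on the left and RS3 on the right. In RS2 all 32 coloured points lie among the uncalled events, and in RS3 the 2 called points and the BCL2L12 event at 0.077 stand above the others.

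BIRC5 (ENSG00000089685, chromosome 17) encodes survivin, an inhibitor of apoptosis protein that also guides chromosome segregation. The exon of 118 bases at 76212745 to 76212862 is the one whose loss makes the form known as survivin-delta-Ex3. RS3 listed it in 2 rows, at -0.142 (p-value 5.64e-05, FDR 0.00621) and at -0.009 (FDR 1) in the authors' deposited table, of which the first was called. In RS2 its 2 rows were -0.039 and 0.009 in the authors' deposited table, both with an FDR of 1. The RS3 loss is thus carried by 1 row, and since the tables give no flanking exons, it is unknown which neighbours that row joins and which RS2 row it matches.

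The exon is number 3 of 4 in the GENCODE transcript BIRC5-202 and lies wholly in coding sequence. Its length is not a multiple of 3: removing it from that transcript changes the frame, and the first stop then follows after 137 codons in place of 142, in the last exon. Of 11 annotated BIRC5 transcripts, 6 hold the exon.

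No further BIRC5 exon was called in either library. The exon of 69 bases, which adds a stretch in frame (165 codons in BIRC5-201 with it and 142 without) and marks the survivin-2B form, was at 0.013 in RS2 and 0.016 in RS3 in the authors' deposited table. A form of it that runs 32 bases further was at -0.004 and 0.009 in the authors' deposited table. The 816-base form, which starts with the 69-base exon and ends with the 118-base exon without splicing out the bases between them, was at 0.078 in RS2 and -0.048 in RS3 in the authors' deposited table. For a downstream exon of 165 bases, of which 149 are untranslated in BIRC5-211, the 4 rows over both libraries lay between -0.022 and -0.007 in the authors' deposited table.

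BCL2L12 (ENSG00000126453, chromosome 19) encodes a BCL2 family protein described mostly as an inhibitor of cell death. Its exon 3 is listed in 2 forms that end at the same base, 50170418, and start 3 bases apart, so that they differ by the AAG in capitals above. In RS3 the shorter form, of 140 bases, had rows at 0.114 (p-value 7.67e-05, FDR 0.00793) and 0.018 (FDR 1) in the authors' deposited table, and the first was called. For the longer form, of 143 bases, the RS3 rows were 0.077 (p-value 2.42e-05, FDR 0.00307) and 0.007 (FDR 1) in the authors' deposited table. The 0.077 row had the smallest p-value of all events of these genes and missed the call only through the minimum difference of 0.1. RS2 listed 1 row of each form, at 0.007 and 0.006 in the authors' deposited table, both with an FDR of 1. Both RS3 rows of each form were above 0, and the forms share 140 bases, so they are not separate evidence.

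Without the 143-base exon, the frame of BCL2L12-202 ends after 176 codons in place of 334, at a stop 283 bases upstream of the last exon junction. The GENCODE transcripts hold the longer form 6 times and the shorter form 1 time, out of 13. At the 3 exons that follow it, of 87, 92 and 273 bases, all differences lay between -0.007 and 0.062 in both libraries in the authors' deposited table, with FDRs of 1.

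**Figure D3:**
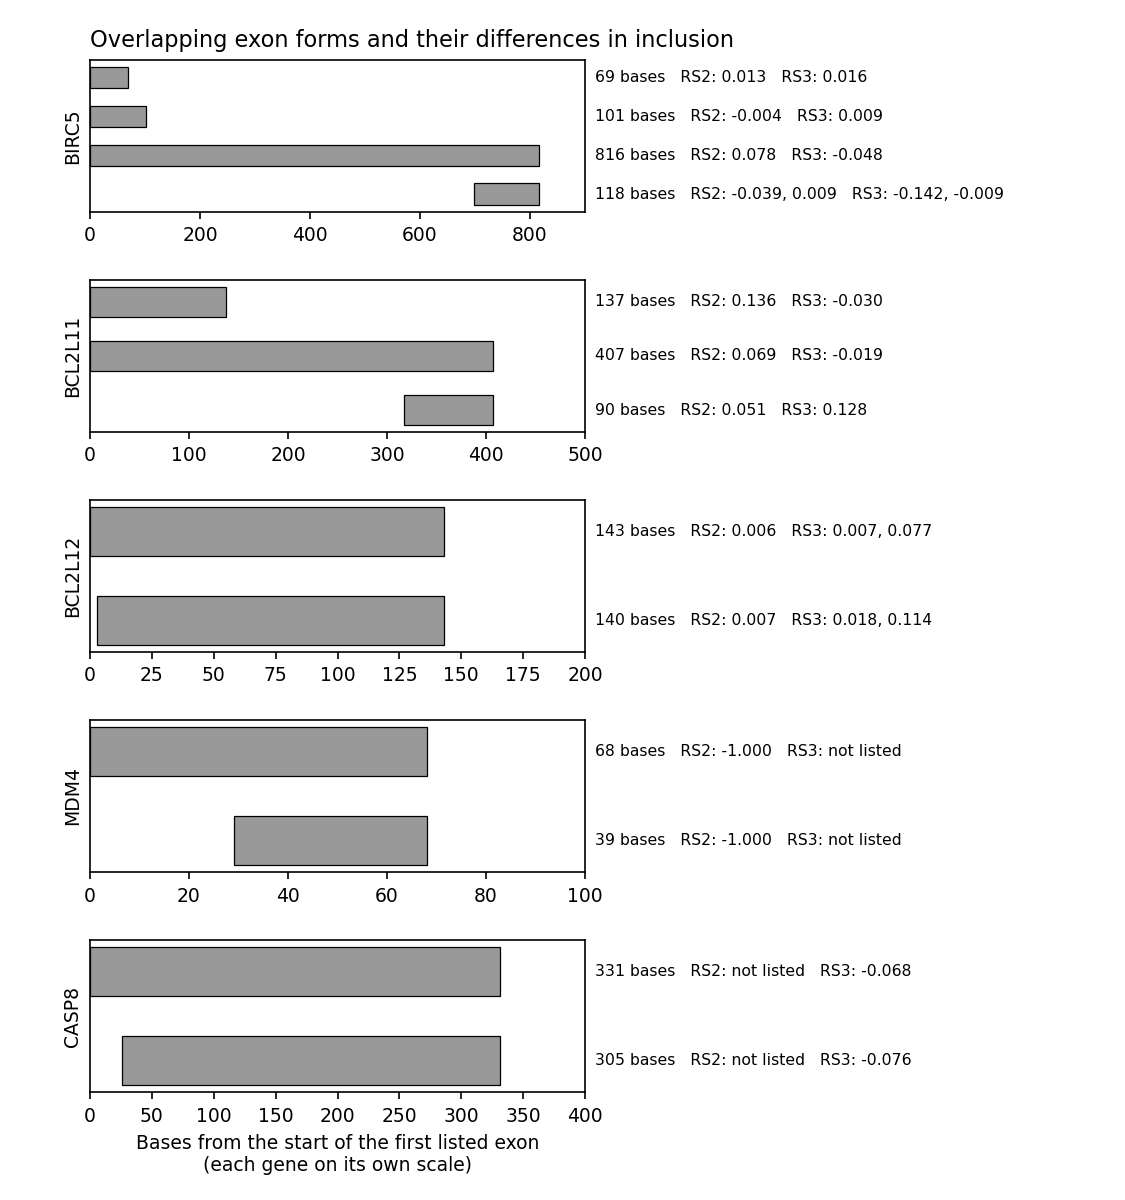
Overlapping exon forms of BIRC5, BCL2L11, BCL2L12, MDM4 and CASP8 drawn to scale along the gene, in bases from the first listed exon, with the difference in inclusion of every row in RS2 and RS3 beside each form. The BCL2L12 forms differ by 3 bases at their start and had RS3 rows at 0.077 and 0.114 beside rows nearer to 0, and the 118-base BIRC5 exon is the last part of the 816-base form.

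BCL2L11 (ENSG00000153094, chromosome 2) encodes BIM, which starts apoptosis by binding the protective BCL2 proteins. Its second exon is listed whole, with 407 bases, and as 2 parts of 137 and 90 bases with 180 bases between them. The whole form gives 198 codons in BCL2L11-206, the extra-long BIM, and the spliced parts give 138 codons in BCL2L11-201, the long BIM. Leaving out the 90-base part as well would give 108 codons, the length of the short BIM. In RS2 the differences in the authors' deposited table were 0.069 for the whole exon, 0.136 for the 137-base part and 0.051 for the 90-base part. In RS3 they were -0.019, -0.030 and 0.128 in the authors' deposited table. All 6 had an FDR of 1, and the whole form and the 137-base part had opposite signs in RS2 and RS3.

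The widest values of BCL2L11 belonged to an exon of 125 bases at 111911357 to 111911481, which in BCL2L11-217 holds the end of a reading frame of 140 codons (29 coding and 96 untranslated bases). RS2 listed it at -0.504 (FDR 1) and -0.157 (FDR 1), and RS3 at 0.350 (p-value 0.0312, FDR 0.531), in the authors' deposited table. The exon of 104 bases was listed only in RS2, at -0.042 in the authors' deposited table.

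MDM2 (ENSG00000135679, chromosome 12) encodes the ubiquitin ligase that marks p53 for destruction. It had a single listed exon, of 93 bases at 69209408 to 69209500, which 1 of 34 GENCODE transcripts of the gene holds. The exon's length is a multiple of 3, but its frame could not be followed to a stop. In the authors' deposited table it was at -0.043 in RS2 (FDR 1) and at -0.105 in RS3 (p-value 0.117, FDR 0.883), neither of them called.

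MDM4 (ENSG00000198625, chromosome 1) encodes the partner of MDM2 that blocks p53's activation domain. Skipping of its 68-base exon gives the short form MDM4-S, which is known from tissues and tumours with low MDM4 protein. In MDM4-203 the frame runs for 490 codons with the exon and stops after 140 codons without it, 415 bases upstream of the last exon junction. Both listed forms of the exon, of 68 and of 39 bases, were at -1 in RS2 in the authors' deposited table, the lowest value the scale allows, and neither was listed in RS3. The 39-base form is the last part of the 68-base form, so the forms are not separate evidence. Their p-values in the authors' deposited table were 0.104 and 0.105, with FDRs of 1, so neither was called. Such extremes were not rare: 442 RS2 events (1.09%) and 374 RS3 events (0.88%) were at -1 or 1, and 0 of them were called in either table. How many reads stand behind them is unknown.

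CASP2 (ENSG00000106144, chromosome 7) encodes caspase-2, an initiator caspase activated after DNA damage and mitotic error. Its 61-base exon is the known switch of the gene: inclusion gives the short form and skipping the long, active form. Of 7 annotated CASP2 transcripts, 1 holds the exon, and that transcript has no annotated coding sequence. Placed after exon 8 of CASP2-201, the exon brings a stop after 343 codons in place of 452, and that stop starts at the second base of the following exon, 259 bases upstream of the last junction. In the authors' deposited table the exon was at -0.088 in RS2 (p-value 0.025, FDR 0.964) and at -0.103 in RS3 (p-value 0.0164, FDR 0.374). It was the only event of these genes with an unadjusted p-value under 0.05 in RS2, and it was not called in either table. The other listed CASP2 exon, of 110 bases, was at -0.006 in both in the authors' deposited table.

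CASP9 (ENSG00000132906, chromosome 1) encodes the caspase that the apoptosome activates, and its short form, which lacks several middle exons, blocks the full enzyme. Of these middle exons, the tables listed number 3 (35 bases), number 4 (177 bases) and number 5 (90 bases) of CASP9-201. The 35-base exon was at -0.027 in RS2 and -0.030 in RS3 in the authors' deposited table, and the 90-base exon was at 0.020 in both. The 177-base exon was listed only in RS3, at -0.105 with an FDR of 1 in the authors' deposited table. Exon 8, of 110 bases, was also listed only in RS3, at -0.020 in the authors' deposited table. No CASP9 event had a p-value under 0.254 in the authors' deposited table.

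CASP8 (ENSG00000064012, chromosome 2) encodes the caspase that death receptors activate. All 5 of its events were negative, 2 of them being forms of the same exon. The 45-base exon was counted in both RS2 and RS3, which share the comparator library, so the 5 are not separate evidence. Over all events, 45.9% were lower in RS2 and 51.1% in RS3. In RS2 the 106-base exon was at -0.364 (p-value 0.0822, FDR 1) and the 45-base exon at -0.282 (p-value 0.404, FDR 1) in the authors' deposited table. In RS3 the 45-base exon was at -0.17 (p-value 0.489, FDR 1) in the authors' deposited table, and 2 forms of an upstream exon that start 26 bases apart, of 331 and 305 bases, were at -0.068 and -0.076. The 45-base exon keeps the frame, with 479 codons in CASP8-212 with it and 464 without, whereas loss of the 106-base exon leaves 108 codons. None of the 5 was called.

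FAS (ENSG00000026103, chromosome 10) encodes the death receptor that binds FAS ligand. Its 63-base exon 6 codes for the stretch that anchors the receptor in the membrane, and skipping it, which keeps the frame (335 codons in FAS-204 with it and 314 without), gives a soluble receptor. In the authors' deposited table this exon was at 0.283 in RS2 (p-value 0.345, FDR 1) and at the same 0.283 in RS3 (p-value 0.507, FDR 1). Neither was called. The 109-base exon was at 0.009 in RS2 and -0.008 in RS3, and the 138-base exon, listed only in RS2, at -0.004, in the authors' deposited table.

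Both tables use the same comparator library, so like values in RS2 and RS3 are not independent. Of 14 exons of these genes listed once per table, 3 had identical differences to the last deposited digit (FAS exon 6, the 90-base CASP9 exon and the 110-base CASP2 exon). Over all 22770 such exons, 3369 (14.8%) had equal differences other than 0. No value of RS3 was tested directly against RS2.

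Several of these exons were listed in more than 1 form. Of 31 exons, 13 (41.9%) shared exactly 1 end with another listed exon of the gene, where 18.8% of 39434 exons in all did, a description with no test. These were exons of BIRC5, BCL2L11, BCL2L12, MDM4 and CASP8. The genes were chosen for having known splice forms, so nothing is concluded from the higher share. The length was a multiple of 3 for 13 of 31 (41.9%), against 41.1% of all exons, and the median length was 109 bases against 120. Of the 21 exons that lie wholly in coding sequence with a known frame on both sides, 10 keep the frame when removed and 11 do not. For 7 of these 11, the first stop without the exon lies upstream of the last exon junction, the position that in general exposes an mRNA to nonsense-mediated decay. Both called events were among the 11, BCL2L12 with such an early stop and BIRC5 without. The 7 and the 11 each include the 143-base and the 140-base form of the same BCL2L12 exon, which are not separate evidence.

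**Figure D4:**
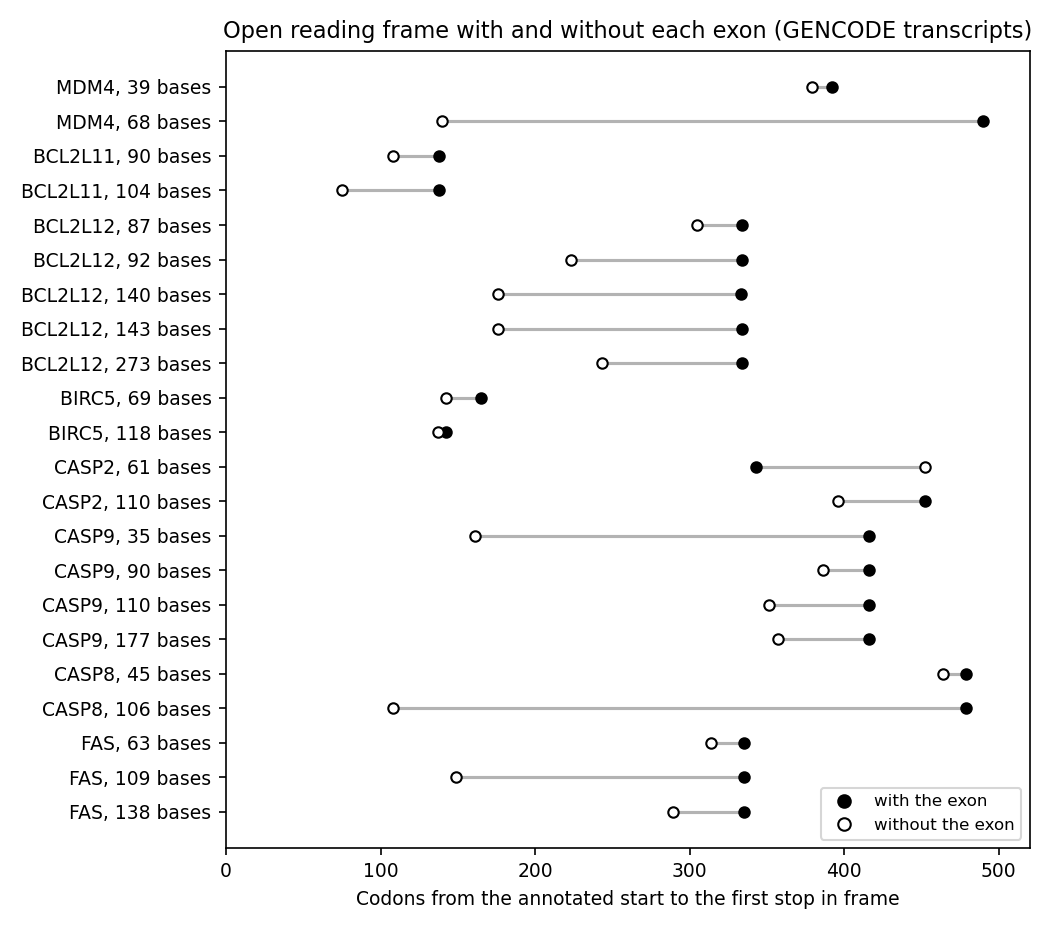
Codons from the annotated start to the first stop in frame, with the exon (filled) and without it (open), for the 22 exons, in 8 of the genes, whose frame could be followed both ways in GENCODE transcripts. The 118-base BIRC5 exon changes the length by 5 codons (142 to 137), the 140-base BCL2L12 exon from 333 to 176, and only the 61-base CASP2 exon gives a shorter frame when kept.

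Other genes of the same pathways were taken from 6 lists: p53 regulators, p53 targets, BCL2 family, inhibitor of apoptosis proteins, caspases with the apoptosome, and death receptor signalling. Of 91 of their genes with events in each table, 0 were called in RS2 (0.238% of all genes were) and 1 in RS3 (1.1%, against 3.05% of all genes). The single call was a 62-base exon of ACIN1, a nuclear protein cleaved by caspases during chromatin condensation and also part of splicing complexes (chromosome 14, 23540334 to 23540395). It fell by 0.149 in RS3 (FDR 0.00253) and was at -0.059 in RS2 (FDR 1) in the authors' deposited table. By list, 0 of 25 p53 regulators, 0 of 18 p53 targets, 0 of 14 BCL2 family genes, 1 of 13 caspase and apoptosome genes and 0 of 16 death receptor genes were called in RS3. Of the inhibitor of apoptosis list, 0 of 5 genes were called in RS3. The median absolute difference over the 6 lists was 0.013 in RS2 and 0.016 in RS3, beside 0.018 and 0.02 over all events.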

How the data were processed

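The data were 2 tables of exon-skipping events, 1 for RS2 and 1 for RS3, each against the same comparator library, from 3 samples with 1 library per group. The submitters' processing notes name STAR, FastQC and the build hg19, while for the splicing program no name is given in the sources used here. Per the file headers, the authors deposited for each event a p-value, an FDR and the difference in inclusion level. The difference is read as RS2 or RS3 minus comparator, the order in which each table names its libraries. The 4 columns of inclusion level per library match no sample label and entered no result; the first row of each table was only viewed, and there the difference was the first level minus the second.

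The call rule was an FDR under 0.05 with an absolute difference from 0.1 upwards. Exons were matched on gene, strand, start and end. No test was run on these tables beyond the authors' own. A repeat of the Benjamini-Hochberg adjustment, tested on simulated data, moved 0 calls. Exons were placed in GENCODE 29 transcripts by length and spacing, with no conversion of coordinates, and reading frames were followed to the first stop (Python 3.11.15, pandas 2.3.3).

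Members and gene lists were chosen with earlier results of these data known. The text names all 10 genes, each called event, and per gene and table the events with the smallest p-value and the largest difference. Pathway genes are named only where called. Alternatives covered the call thresholds, the adjustment and the choice among rows of an exon.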

Additional observations from a re-analysis of the deposited data

Results flagged for a closer look

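The 125-base exon of BCL2L11, the gene of the BIM protein, lay on opposite sides of the comparator library in RS2 and RS3. Its rows in the authors' deposited table were -0.504 and -0.157 in RS2 and 0.350 in RS3. None of these events was called, and RS3 was not tested against RS2. This exon has 2 rows in RS2, so it is not among the 22770 exons listed once per table. Of those, 2587 differed by at least 0.1 in both tables, 483 of them with opposite signs. The genes described here had 14 exons listed once per table, of which 2 differed by at least 0.1 in both tables and 0 had opposite signs.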

How the results depend on the processing

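Of 36 alternative values, 26 stayed within their limits and 10 moved. With a minimum difference of 0.2, at an FDR under 0.05 or under 0.01, and with only exons in a single row, the RS3 calls went from 2 events in 2 genes to 0 in 0, because both differences are below 0.2 and both exons have 2 rows. With no minimum difference 3 RS3 events passed, the third being the 143-base form of BCL2L12. An FDR under 0.1, a repeated adjustment and 1 row per exon left the count at 2. The RS2 count was 0 under all 7 alternatives, and the RS2 gene count followed it. These values could hardly have moved, since the smallest deposited RS2 FDR of these genes was 0.964 (CASP2). They are part of the 26, which is therefore no measure of stability. Taking the median over the rows of an exon gave -0.0755 for BIRC5 and 0.066 for BCL2L12, in RS3. With 1 row per exon, chosen by the smallest p-value, the median absolute difference went from 0.033 to 0.042 in RS2 and from 0.03 to 0.055 in RS3, where the medians over all exons were 0.019 and 0.022. Groups have 1 library each, so no replicate could be left out, and no paired analysis was possible because there is 1 library per group. Read depth is unknown, which limits every uncalled difference.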
